A study of Homo sapiens with 3 samples.

Results

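The 49 genes described here encode the mucins and the enzymes that build mucin-type O-glycans, as they were read in wild-type NCI-H1975 cells, an established human lung adenocarcinoma line. They are the protein-coding genes of the deposited count table whose symbols follow the MUC, GALNT and ST3GAL patterns, together with C1GALT1, C1GALT1C1, GCNT1, GCNT3, B3GNT3, B3GNT6, ST6GALNAC1 and ST6GALNAC2. The table lists 60880 gene rows, of which 19197 matched a protein-coding gene, and the rule for the 49 uses gene names and gene type only. MUC8 met the name pattern but matched no row and has no value here.

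The study compared wild-type cells with an anlotinib-resistant derivative of the same line and examined resistant cells in which the transcription factor TFAP2A was knocked down. Anlotinib is an inhibitor of several receptor tyrosine kinases. Read counts were examined for 1 library, wild-type RNA-seq replicate 2, from cells grown in serum-containing medium. The resistant cells, the knockdown cells and the 2 wild-type ATAC-seq samples were not analysed here, so no cell states are compared and there is no replicate spread and no test. The library held 25012733 counts, and levels are given in CPM, counts per 1000000 counts of the library. Brackets hold 95% Poisson or binomial intervals, which cover counting error only. Transcript lengths were not used here, so differences between genes below are differences in read numbers and not in molecules.

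Mucins are proteins with long stretches rich in serine, threonine and proline, to which dense O-glycans are attached in the Golgi. Membrane-bound mucins stay anchored at the apical cell surface, whereas gel-forming mucins are secreted and make up the mucus of the airway and gut. An enzyme of the GALNT family starts each chain by adding N-acetylgalactosamine to a serine or threonine. The first sugar is then extended to core 1 by C1GALT1, branched to core 2 by GCNT enzymes or turned into core 3 by B3GNT6, and sialyltransferases can cap or end the chain. In lung adenocarcinoma MUC1 and MUC16 are well known as surface antigens and, after shedding, as the serum markers CA15-3 and CA125.

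Of the 49 genes 36 had at least 10 counts and are called detected, which is 73.5% beside 69.6% of all protein-coding genes. The remaining 13 comprised 6 genes at 0 and 7 genes with 1 to 9 counts. Levels of 100 CPM or more were reached by 5 genes: MUC16, MUC1, GALNT2, GALNT10 and GALNT6. That is 10.2% of the 49, beside 11.1% of all protein-coding genes, so neither share stood far from the background. Those 5 genes held 68.1% (67.7 to 68.5) of the 51213 counts of the whole set, which itself took 0.205% (0.203 to 0.207) of the library. The detected members had a median of 20.6 CPM with quartiles of 3.30 and 45.1 CPM, against 26.2 CPM with quartiles of 8.12 and 65.9 CPM for all detected protein-coding genes. With undetected genes included, the medians were 5.96 CPM for the set and 9.80 CPM for all protein-coding genes.

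**Figure D1:**
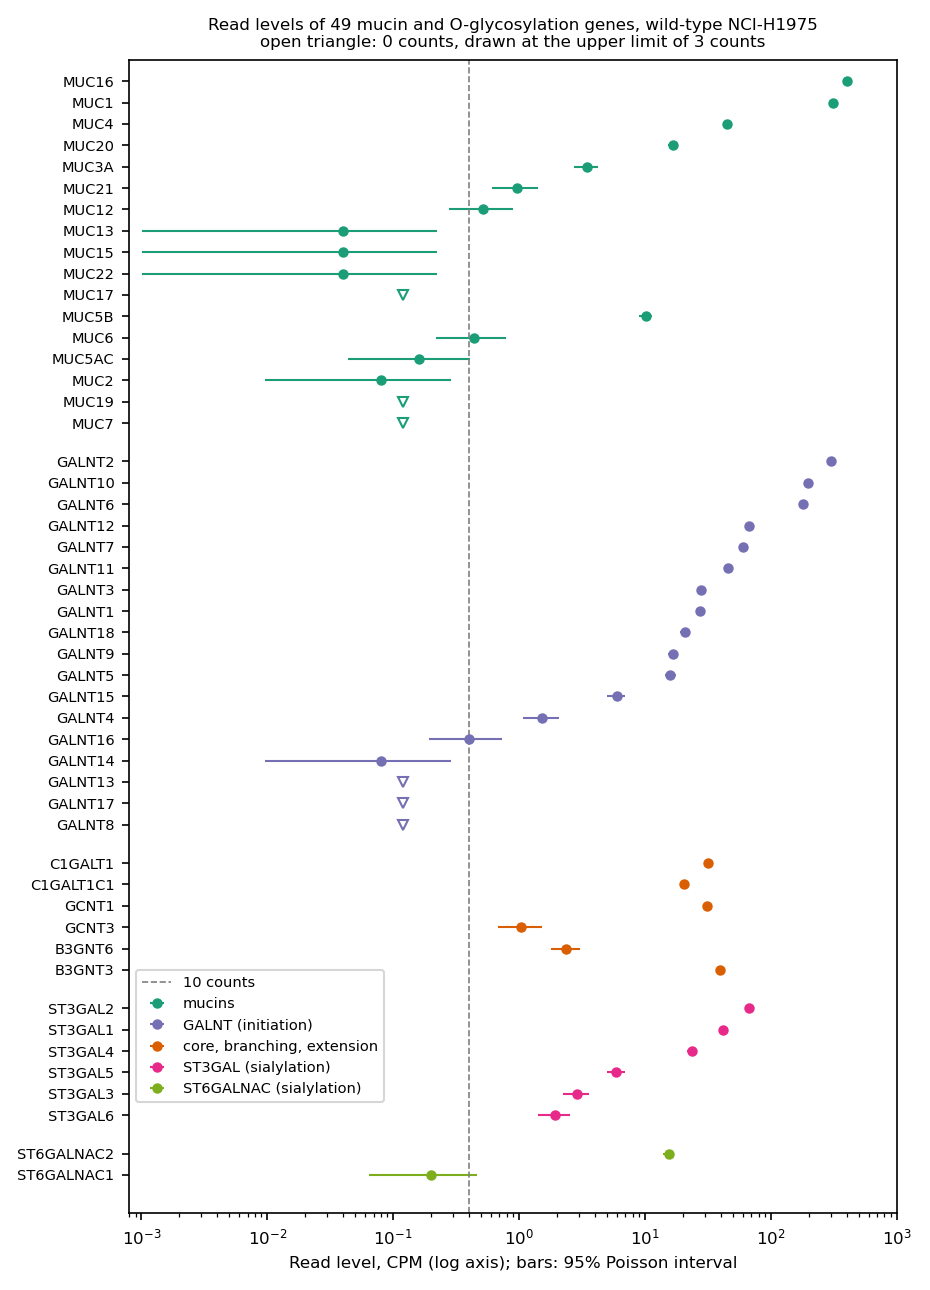
Read level in CPM on a log axis for each of the 49 genes, ordered within its role, with bars for the 95% Poisson interval and an open triangle at the limit of 3 counts for genes at 0. MUC16 and MUC1 lie farthest right among the mucins at 404 and 313 CPM, and 13 genes lie left of the dashed line at 10 counts.

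**Figure D2:**
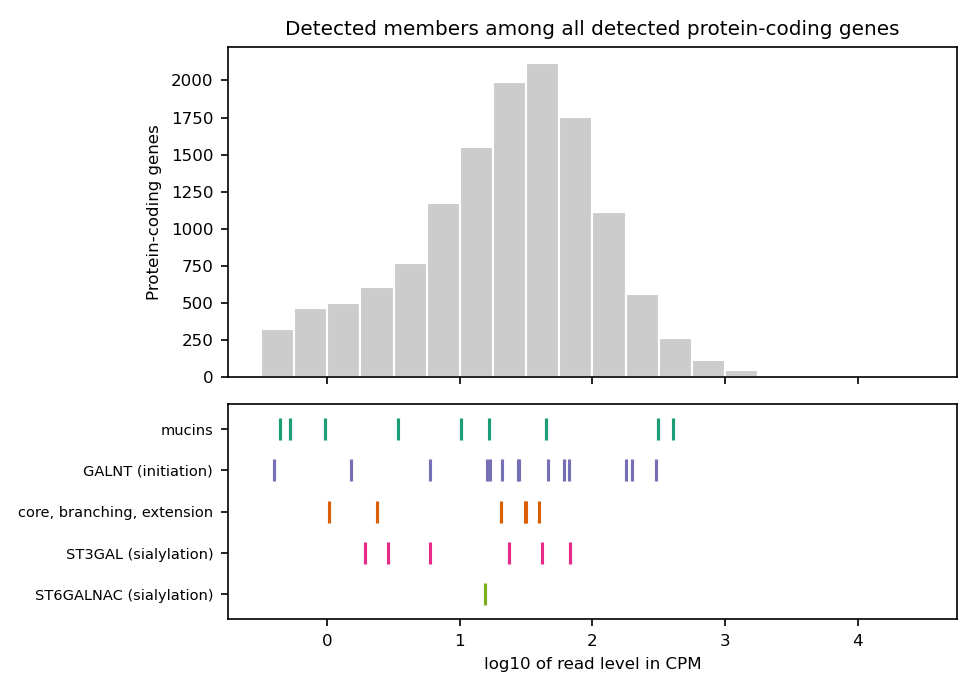
Histogram of the log10 read level in CPM of all 13370 detected protein-coding genes, above tick marks for the detected members of each family. The members spread over most of the range of the histogram, and 16 of the 36 detected members lie above the median of 26.2 CPM.

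The upstream sequences of the 2 genes with the most reads and of 1 gene at 0 are shown for the mucins and for the GALNT family. They set the ends of the read range beside the DNA next to an annotated start. Each is the 250 bases before the annotated start in RefSeq on GRCh38.p14, written 5′ to 3′ on the strand of the gene, and the table of starts held 33 of the 49 members. Capitals mark 2 motifs, GCCNNNGGC, a palindromic core bound by AP-2 factors such as TFAP2A, and the TATA box sequence TATAAA, searched on both strands with overlapping matches run together. Among 15359 protein-coding promoters read the same way, 24.3% held GCCNNNGGC and 9.16% held TATAAA. The windows lie at chr19:9065752-9066001 (minus strand) for MUC16, chr1:155192916-155193165 (minus) for MUC1, chr7:101019831-101020080 (plus) for MUC17, chr1:230066988-230067237 (plus) for GALNT2, chr5:154190483-154190732 (plus) for GALNT10 and chr2:153068043-153068292 (plus) for GALNT13.
MUC16: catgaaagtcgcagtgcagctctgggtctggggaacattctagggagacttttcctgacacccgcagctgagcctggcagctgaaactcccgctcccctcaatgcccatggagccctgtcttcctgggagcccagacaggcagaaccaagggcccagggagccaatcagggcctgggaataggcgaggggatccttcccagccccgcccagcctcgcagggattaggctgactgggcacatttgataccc
MUC1: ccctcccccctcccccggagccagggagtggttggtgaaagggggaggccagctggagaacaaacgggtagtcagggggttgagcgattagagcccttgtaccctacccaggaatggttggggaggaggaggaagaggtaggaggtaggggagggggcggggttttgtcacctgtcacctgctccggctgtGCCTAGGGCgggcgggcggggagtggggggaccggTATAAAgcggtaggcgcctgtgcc
MUC17: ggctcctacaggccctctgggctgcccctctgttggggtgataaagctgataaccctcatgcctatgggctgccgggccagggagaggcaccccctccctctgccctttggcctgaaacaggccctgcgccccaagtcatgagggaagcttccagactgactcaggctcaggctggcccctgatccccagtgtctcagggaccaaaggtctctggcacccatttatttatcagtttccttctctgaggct
GALNT2: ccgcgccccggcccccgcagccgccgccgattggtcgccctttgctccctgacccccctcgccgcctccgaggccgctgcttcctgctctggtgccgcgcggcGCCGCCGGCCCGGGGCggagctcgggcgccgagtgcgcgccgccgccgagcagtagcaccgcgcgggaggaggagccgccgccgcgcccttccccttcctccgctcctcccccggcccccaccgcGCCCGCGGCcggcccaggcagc
GALNT10: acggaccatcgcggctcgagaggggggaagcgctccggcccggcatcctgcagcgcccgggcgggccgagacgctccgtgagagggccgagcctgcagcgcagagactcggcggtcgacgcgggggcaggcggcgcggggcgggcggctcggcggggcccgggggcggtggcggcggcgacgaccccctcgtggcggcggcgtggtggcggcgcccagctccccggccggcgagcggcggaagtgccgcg
GALNT13: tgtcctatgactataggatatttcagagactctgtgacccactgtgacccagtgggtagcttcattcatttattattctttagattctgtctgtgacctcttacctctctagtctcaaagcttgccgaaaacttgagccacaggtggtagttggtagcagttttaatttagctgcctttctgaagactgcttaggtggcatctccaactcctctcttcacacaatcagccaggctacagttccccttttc

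The MUC1 window held 1 match to each motif, and the GALNT2 window held 3 matches to GCCNNNGGC and none to TATAAA. Neither motif was found in the windows of MUC16, MUC17, GALNT10 and GALNT13. The windows of GALNT2 and GALNT10 were rich in CpG dinucleotides, with 42 and 46 in 250 bases, where the median promoter had 17. MUC16 and MUC1, at the top of the mucin reads, had only 6 and 11, and the genes at 0, MUC17 and GALNT13, had 2 and 1. GC content was 82.8% for GALNT2, 82.4% for GALNT10, 66.0% for MUC1, 61.6% for MUC16, 60.0% for MUC17 and 44.4% for GALNT13, with a median of 62.4% over all promoters. A motif match is a description of letters and says nothing of binding, and accessibility at these starts was not measured here. Whether transcripts in these cells began at these annotated starts was not tested, so the windows may not be the promoters in use. Because 67.3% of members had a sequence, no comparison of promoter content over the whole set was made.

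Reads of the mucin family fell almost wholly on membrane-bound mucins. The 11 membrane-bound genes took 19613 of 19884 mucin counts, or 98.6% (98.5 to 98.8), the 5 gel-forming genes took 271 counts, or 1.36% (1.21 to 1.53), and MUC7, a small secreted mucin of saliva, was at 0. MUC16 and MUC1 together held 90.3% (89.8 to 90.7) of the family's reads. Of the 17 mucins 9 were detected, or 52.9% beside the background of 69.6%.

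MUC16 (ENSG00000181143.15_4), the carrier of the CA125 antigen, had 10116 counts, or 404 CPM (397 to 412), more reads than 97.7% of detected protein-coding genes. It encodes one of the longest human proteins, so each MUC16 transcript yields more fragments than a transcript of ordinary length. MUC1 (ENSG00000185499.16_4), the polymorphic epithelial mucin with a signalling cytoplasmic tail, had 7832 counts, or 313 CPM (306 to 320), which placed it over 96.6% of the detected genes. MUC16 thus had 1.29 times (1.25 to 1.33) the reads of MUC1, a ratio that would change with transcript length.

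MUC4, a large membrane mucin that binds the receptor ERBB2, had 1121 counts, or 44.8 CPM (42.2 to 47.5). MUC20, counted here with the membrane-bound mucins and known to associate with the receptor MET, had 418 counts, or 16.7 CPM (15.1 to 18.4). MUC3A had 86 counts, or 3.44 CPM (2.75 to 4.25). The other membrane-bound mucins had fewer reads still. MUC21 had 24 counts and MUC12 had 13, and MUC13, MUC15 and MUC22 had 1 count each. MUC17 was at 0, for which the limit was set at 3 counts, or 0.12 CPM.

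Among the gel-forming mucins MUC5B, a principal mucin of airway mucus, was the only one above 0.5 CPM. It had 254 counts, or 10.2 CPM (8.94 to 11.5), and 93.7% (90.1 to 96.3) of the reads of its class. MUC6, a mucin of the stomach glands, had 11 counts, or 0.440 CPM (0.220 to 0.787), just over the detection minimum. MUC5AC, the other main airway mucin and the one typical of goblet cells, had 4 counts, and MUC2, the mucin of intestinal goblet cells, had 2. MUC19 was at 0. MUC5B had 63.5 times (24.5 to 235) the reads of MUC5AC, a range set by the 4 reads of the latter.

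**Figure D3:**
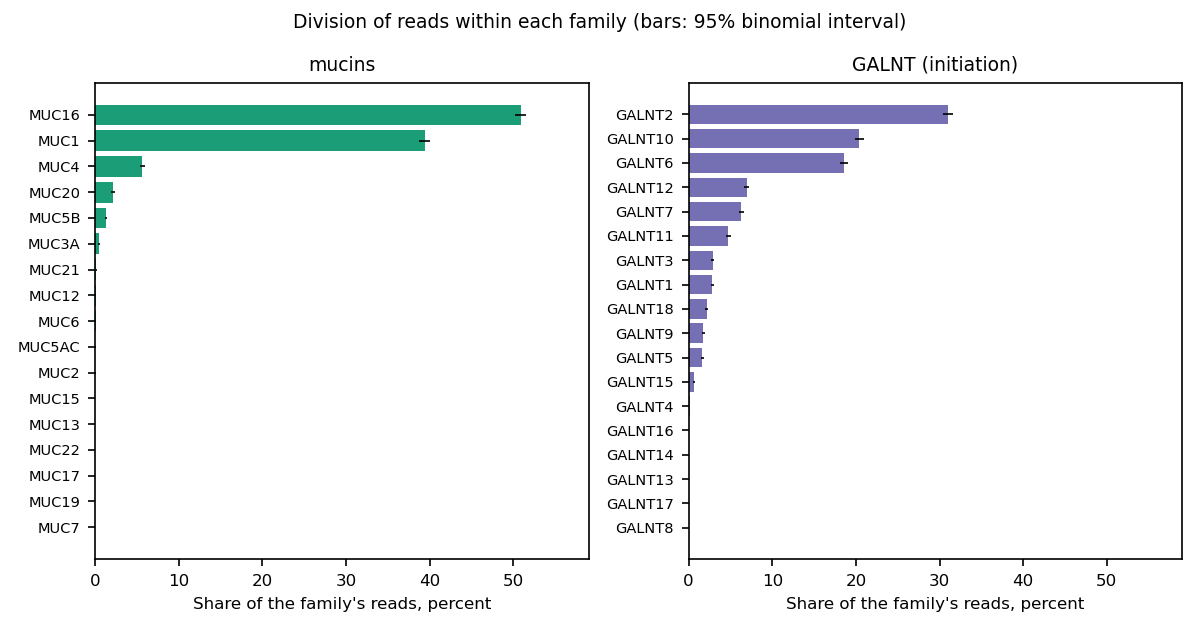
Share of the family's reads taken by each of the 17 mucins (left) and 18 GALNT genes (right), in percent, with bars for the 95% binomial interval. MUC16 and MUC1 fill 50.9% and 39.4% of the mucin reads, while GALNT2, GALNT10 and GALNT6 fill 31.0%, 20.4% and 18.6% of the GALNT reads.

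Of the 17 mucins 11 lie in 4 runs of neighbouring genes, taking the gene order of GRCh38.p14, and reads differed sharply within a run. In the gel-forming run MUC6-MUC2-MUC5AC-MUC5B, only the last gene had more than 11 counts. The protein-coding genes on either side, AP2A2 with 1818 counts and TOLLIP with 2370, were both read at far higher numbers than MUC2 and MUC5AC between them. Both genes of the run MUC20-MUC4 were detected, beside TNK2 with 3093 counts and APOD with 4. The run MUC3A-MUC12-MUC17 had 86, 13 and 0 counts, and TRIM56, the next protein-coding gene after MUC17, had 5485 counts. In the run MUC21-MUC22, with 24 and 1 counts, the neighbours MUCL3 and C6orf15 were both at 0. MUC16 lay between MBD3L1 and OR1M1, which had 0 counts each, whereas MUC13 with its 1 count lay between ITGB5 with 6917 and HEG1 with 3539.

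**Figure D4:**
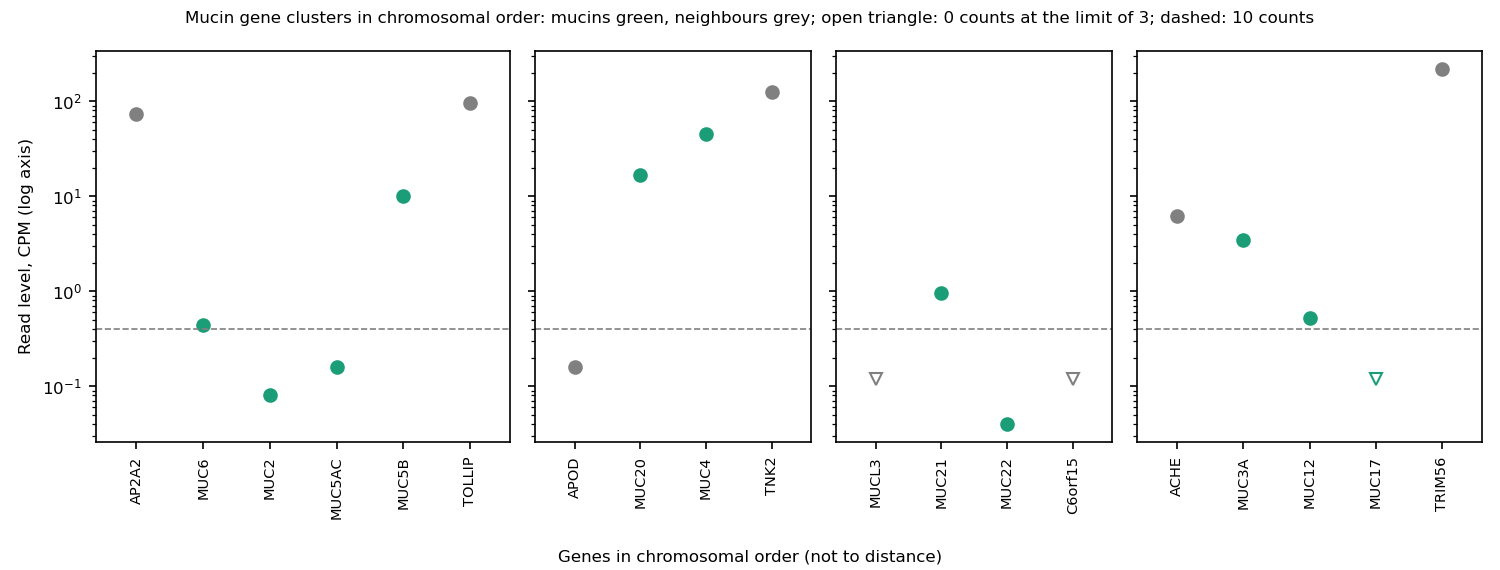
Read level in CPM on a log axis for the 4 runs of neighbouring mucin genes (green) and the nearest protein-coding gene on each side (grey), in chromosomal order and not to distance. MUC2 and MUC5AC lie below the dashed line at 10 counts between AP2A2 and TOLLIP, at 72.7 and 94.8 CPM, and the 3 mucins before TRIM56 step down to 0.

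Of the 18 GALNT genes, whose enzymes start O-glycans, 14 were detected, or 77.8%, near the 69.6% of all protein-coding genes. The family took 24190 counts, 47.2% (46.8 to 47.7) of the reads of all 49 genes. GALNT2, GALNT10 and GALNT6 held 70.0% (69.4 to 70.6) of them. The median detected GALNT gene had 27.5 CPM, beside 26.2 CPM for all detected protein-coding genes and 10.2 CPM for detected mucins.

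GALNT2 (ENSG00000143641.9_2), a widely expressed transferase with many protein substrates including apolipoprotein C-III, had 7506 counts, or 300.1 CPM (293 to 307). GALNT10 (ENSG00000164574.15_3), which prefers peptides that already carry a sugar, had 4936 counts, or 197 CPM (192 to 203). GALNT6 (ENSG00000139629.15_2), often raised in carcinomas and known to glycosylate fibronectin, had 4494 counts, or 180 CPM (174 to 185). They had more reads than 96.3%, 93.3% and 92.5% of detected protein-coding genes, and their 3 counting intervals did not overlap.

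A middle group followed. GALNT12, a follow-up enzyme of the digestive tract, had 1677 counts, or 67.0 CPM (63.9 to 70.3), and GALNT7, another enzyme of pre-glycosylated peptides, had 1517 counts, or 60.6 CPM (57.6 to 63.8). GALNT11, which glycosylates the linkers of low-density lipoprotein receptor repeats, had 1150 counts, or 46.0 CPM (43.4 to 48.7). GALNT3, which protects the hormone FGF23 from cleavage, had 694 counts and GALNT1, a broadly expressed initiator, had 682, and these 2 were not separable by their intervals of 25.7 to 29.9 and 25.3 to 29.4 CPM. GALNT18 had 517 counts, GALNT9 had 420 and GALNT5 had 398, of which the last 2 overlapped in their intervals. GALNT15 had 149 counts and GALNT4 had 38.

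Reads were compared within 5 chosen groups of paralogs, which do not cover the whole family. In each of these 5 groups 1 gene held most of the reads. GALNT2 had 7506 counts against 10 for GALNT16 and 2 for GALNT14, an enzyme linked to death receptor glycosylation, which made ratios of 751 (408 to 1566) and 3753 (1039 to 30995). GALNT1 had 682 counts and GALNT13, a largely neuronal isoform, was at 0. The count of GALNT1 was 227 times the limit of 3 counts set for a gene at 0, which is not an interval bound. GALNT12 had 44.1 times (32.0 to 62.6) the reads of GALNT4. That interval leaves out any reads lost from GALNT4, which shares exons with the read-through gene POC1B-GALNT4. GALNT6 had 6.48 times (5.98 to 7.02) those of GALNT3, and GALNT10 had 3.25 times (3.07 to 3.45) those of GALNT7, so both members of these last groups were clearly read. GALNT8 and GALNT17 were at 0 along with GALNT13. Outside the 5 groups, GALNT18 had 517 counts and GALNT9 had 420. Their intervals, 18.9 to 22.5 and 15.2 to 18.5 CPM, did not overlap.

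All 6 enzymes and chaperones of core formation, branching and extension were detected, beside 69.6% of all protein-coding genes. C1GALT1, which makes core 1 by adding galactose, had 789 counts, or 31.5 CPM (29.4 to 33.8). Its dedicated chaperone C1GALT1C1, also called Cosmc, had 515 counts, or 20.6 CPM (18.8 to 22.4), 0.653 times (0.583 to 0.730) the reads of the enzyme it folds. Enzyme and chaperone were therefore both read near the middle of the detected genes, above 55.0% and 43.6% of them.

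GCNT1, the core 2 enzyme of many cell types, had 782 counts, or 31.3 CPM (29.1 to 33.5), close to C1GALT1 with a ratio of C1GALT1 to GCNT1 reads of 1.01 (0.913 to 1.12). GCNT3, the core 2 and core 4 enzyme of mucus-secreting epithelia, had only 26 counts, or 1.04 CPM (0.679 to 1.52), and GCNT1 had 30.1 times (20.4 to 46.3) its reads. B3GNT6, which makes core 3 and is typical of the colon, had 59 counts, or 2.36 CPM (1.80 to 3.04). C1GALT1 had 13.4 times (10.3 to 17.7) the reads of B3GNT6. B3GNT3, which extends core 1 and takes part in making sulfated selectin ligands, was the most read of the 6 with 991 counts, or 39.6 CPM (37.2 to 42.2).

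The 6 ST3GAL sialyltransferases were all detected, beside 69.6% of all protein-coding genes. They took 3586 counts, of which ST3GAL2 and ST3GAL1 held 76.2% (74.7 to 77.5). These 2 enzymes cap the galactose of core 1. ST3GAL2 had 1684 counts, or 67.3 CPM (64.1 to 70.6), and ST3GAL1 had 1047 counts, or 41.9 CPM (39.4 to 44.5). ST3GAL4, which sialylates lactosamine ends, had 587 counts, or 23.5 CPM (21.6 to 25.4). ST3GAL5, the synthase of the ganglioside GM3 and not a mucin enzyme, had 148 counts. ST3GAL3 and ST3GAL6, both enzymes of lactosamine ends, had 72 and 48.

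Of the 2 ST6GALNAC genes in the set only 1 was detected. ST6GALNAC2 had 386 counts, or 15.4 CPM (13.9 to 17.1). ST6GALNAC1, the main synthase of the sialyl-Tn antigen, had 5 counts, or 0.200 CPM (0.0649 to 0.466). ST6GALNAC2 had 77.2 times (32.8 to 239) and ST3GAL1 209 times (89.4 to 646) the reads of ST6GALNAC1. Both ratios rest on those 5 reads and became 177 and 524 when the counts were thinned to 50%.

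Other genes of glycan synthesis were read beside the set from lists chosen with earlier results of these data known. Among 17 genes of chain extension and branching 15 were detected, or 88.2% beside 69.6% of all protein-coding genes. They were led by the galactosyltransferases B4GALT1 with 5357 counts and B4GALT5 with 4003 and by B3GNT5, an enzyme of glycolipid chains, with 1884. GCNT4, a further core 2 enzyme, had 8 counts, and A4GNT, which caps gastric gland mucins, was at 0. Of 12 other sialyltransferases 4 were detected, or 33.3% beside the same 69.6%. ST6GALNAC4 had 1533 counts, ST6GAL1, the main enzyme of N-glycan ends, had 855, ST8SIA1 had 108 and ST6GALNAC6, named after its count was seen, had 23. ST6GAL2, ST8SIA2 and ST8SIA3 were at 0. Thus ST6GALNAC4, which adds a second sialic acid to sialylated core 1, had the most reads among the ST6GALNAC genes.

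For fucosylation and sulfation of glycan ends 13 of 18 genes were detected, or 72.2%, near the 69.6% of all protein-coding genes. FUT8, which fucosylates the core of N-glycans, had 2534 counts, CHST6, a sulfotransferase of keratan sulfate, had 1566 and FUT3, the Lewis enzyme, had 558, while FUT7, FUT9 and CHST2 were at 0. All 20 genes that make or transport sugar nucleotides were detected, beside the same 69.6%, with a median of 45.7 CPM. Among them GFPT1 and GFPT2, which open the hexosamine pathway, had 2411 and 1752 counts. Of 13 genes of other kinds of O-glycosylation 12 were detected, or 92.3%. They were led by COLGALT1 with 9434 counts, OGT with 8844 and OGA with 3553, and XYLT1 was at 0. N-glycan processing gave 12 of 13, also 92.3%, with 14108 counts for GANAB, 9642 for MGAT4B and 3388 for MGAT1, and with 5 for MGAT3. The medians of detected genes were 55.7 CPM for the other O-glycosylation genes and 48.6 CPM for N-glycan processing, beside 26.2 CPM for all detected protein-coding genes.

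Of 20 genes of secretory and goblet cells 7 were detected, or 35.0% beside 69.6% of all protein-coding genes, and 9 were at 0. The detected ones had a median of 1.28 CPM. CREB3L1 and CREB3L4, transcription factors of the secretory pathway, had 2047 and 580 counts, and AGR2, a disulfide isomerase needed for mucin folding, had 125. SPDEF, the goblet cell transcription factor, had 25 counts, or 1.0 CPM (0.647 to 1.48), and TFF3, a peptide secreted with mucins, was at 0. AGR3, BPIFA1 and CLCA1 were also at 0. Of 4 airway goblet cell markers, MUC5AC, MUC5B, SPDEF and TFF3, the 2 detected were thus MUC5B and SPDEF. The ciliated-cell markers FOXJ1, DNAI1 and PIFO had 317, 52 and 13 counts, and whether any cells were ciliated was not tested.

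Proteins that resemble, bind or cut mucins were read unevenly. Of 16 mucin-like or densely O-glycosylated proteins 9 were detected, or 56.25% beside 69.6% of all protein-coding genes. There were 11793 counts for the hyaluronan receptor CD44, 10418 for the proteoglycan syndecan SDC1 and 2822 for the sialomucin CD164, with CD34, EMCN and MUCL1 at 0. Galectin LGALS1 had 39103 counts, the galectin ligand LGALS3BP had 24223 and LGALS3, which binds MUC1, had 3091, whereas LGALS4, LGALS7 and CLEC10A were at 0. Of the 14 ligands and glycan-binding proteins 7 were detected, or 50% beside the same 69.6%. MSLN, mesothelin, the known partner of MUC16, had only 39 counts, or 1.56 CPM (1.11 to 2.13), beside the 10116 of MUC16. Of 8 proteases known to shed membrane proteins, mucins among them, 6 were detected, or 75%, near the 69.6% of all protein-coding genes. MMP14 had 6116 counts, ADAM9 had 5037 and ADAM10 had 2098, while MMP7 was at 0 and ELANE, neutrophil elastase, had 3.

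**Figure D5:**
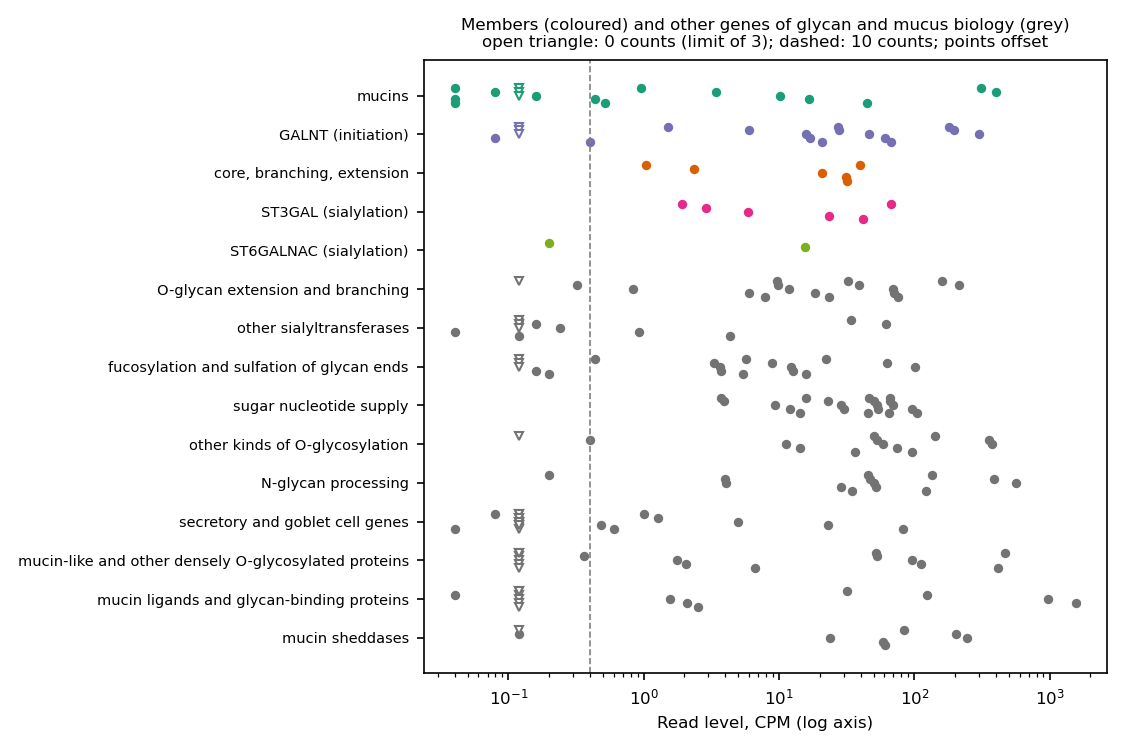
Read level in CPM on a log axis for the 49 genes by family (coloured) and for 10 lists of related genes (grey), with open triangles at the limit of 3 counts for genes at 0. The 20 sugar nucleotide genes all lie right of the dashed line at 10 counts, whereas 13 of the 20 secretory and goblet cell genes lie left of it.

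The label of a carcinoma line fitted its epithelial markers, as all 5 were detected, from EPCAM with 4961 counts to KRT8 with 65584. These 5 markers are not particular to the lung. The 3 endothelial markers with a row were at 0, the fibroblast markers DCN, LUM and COL3A1 had 0, 0 and 2 counts, and of the leukocyte markers PTPRC had 2 counts and CD3E, LYZ and TYROBP had 1 each.

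Reads of some members could be confused with those of other genes. The annotated spans of 11 members overlap another gene with at least 10 counts in this library, on GRCh38.p14 and with introns included. MUC12 with 13 counts overlaps the antisense gene MUC12-AS1 with 20, and GALNT16 with 10 counts overlaps ERH with 2919. GALNT4 with 38 counts lies within POC1B, which had 197, and shares exons with the read-through gene POC1B-GALNT4, which had 3. GCNT1 with 782 counts overlaps RFK with 534, GALNT6 overlaps SLC4A8 with 174, and GALNT9 overlaps GALNT9-AS1 with 48. Near MUC20 the related non-coding gene MUC20-OT1 had 569 counts and the pseudogene MUC20P1 had 39, beside the 418 of MUC20. The repeats of mucin coding sequence are nearly identical within a gene, and the sources used here do not say how reads mapping to several places were counted. Whether these overlaps added reads to a member's count or removed reads from it was not tested.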

How the data were processed

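RNA was read in 1 library, wild-type RNA-seq replicate 2, prepared from total RNA with a directional NEBNext kit, per the labels' protocols. The authors deposited 1 table of unnormalised counts, a whole number of reads for each gene. In the submitters' processing notes the aligners STAR and Bowtie2 (2.3.3.1), the counter featureCounts, the peak caller MACS2 (2.1.1.20160309), the build hg19 and deepTools (3.3.0) are named, with no role stated. The annotation release, strand setting and treatment of multiply mapped reads are not stated in those notes or the labels.

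Identifiers were matched without version to current symbols for 56373 of 60880 rows, which held 99.8% of counts. Gene type and gene order came from RefSeq (GRCh38.p14), and no coordinates of hg19 were used. Counts were divided by the library total of 25012733 to give CPM, so that 1 count is 0.04 CPM, and a gene at 0 was given a limit of 3 counts. Intervals are Garwood (levels), Clopper-Pearson (shares) and conditional binomial (ratios), at 95%. They treat reads as independent although the library had no stated molecular identifiers. The interval code was tested on simulated counts. Detection required 10 counts. Members, lists and mucin classes were chosen with earlier results of these data known. All members were named, and of each other list the 3 with the most counts and up to 3 under 10; other names were chosen with their counts in view. Some genes of these lists are not reported here. Alternatives were minimums of 1 or 50 counts or 1 CPM, thinning to 50%, totals without mitochondrial genes or the 10 most read genes, and sums without members that share sequence. Software was SciPy 1.17.1, pandas 2.3.3 and NumPy 2.4.6 under Python 3.11.15, with figures drawn in Matplotlib 3.10.9.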

Additional observations from a re-analysis of the deposited data

How the results depend on the processing

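Of 42 values recomputed under an alternative, 37 were stable, meaning within 1.5 times for a number of genes and within the 95% interval for a share, ratio or median. Of the 42, 15 came from thinning the same reads and 3 from each altered total, which multiplies every level by a common factor. Stability in those values was largely fixed in advance. With a minimum of 1 count, 14 mucins counted as detected in place of 9, the median of detected mucins became 0.740 CPM in place of 10.2 and that of all detected members became 15.9 CPM in place of 20.6, because genes with few reads enter. With MUC3A, MUC12, MUC19 and MUC20 left out of the sum, MUC16 held 52.2% and MUC1 40.4% of mucin reads. Minimums of 50 counts and of 1 CPM each left 6 mucins, and 29 and 32 of the 49 genes. After thinning to 50% the 6 ratios and 4 shares recomputed stayed inside their intervals, but those of the ratios to ST6GALNAC1 are wide. ST3GAL1 to ST6GALNAC1 went from 209 to 524 and ST6GALNAC2 to ST6GALNAC1 from 77.2 to 177. Levels and ratios per coding kilobase were not run, since no protein or transcript lengths were used. The sum without shared-sequence genes leaves ST3GAL unaltered. At this depth genes under 10 counts have intervals too wide to be ordered. No paired analysis was possible because read counts came from 1 library.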
